A study of Arabidopsis thaliana with 6 samples.

Results

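The genes described here are the sucrose synthases, acid invertases and proteinaceous invertase inhibitors of the *Arabidopsis* stem, 10 of the 33316 genes in the tables. They were picked by gene identifier as the vacuolar invertases *ATBETAFRUCT4* (AT1G12240) and AT1G62660, the cell wall invertase *CWINV1* (AT3G13790), the inhibitors *C/VIF1* (AT1G47960) and *C/VIF2* (AT5G64620), and the sucrose synthases *SUS1* (AT5G20830), *SUS3* (AT4G02280), *SUS4* (AT3G43190), *SUS5* (AT5G37180) and *SUS6* (AT1G73370). The choice was made with their total gene reads and intron reads under Dex and mock in all 6 libraries in view, so the differences between the groups are given below as a description of the 10 genes. Where a fit over all genes called some of them, the count is given beside the share of all genes called and supports nothing.

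RNA sequencing was done on second internodes of *p35S:Myc-GR-bdl* plants, which carry a stabilized form of the AUX/IAA protein BODENLOS fused to a Myc tag and the glucocorticoid receptor domain. Dexamethasone (Dex) lets this fusion act in the nucleus, where AUX/IAA proteins repress auxin response factors. Both groups carried the transgene, and plants of 15 to 20 cm were dipped in mock solution (Mock, 3 libraries) or in 15 µM Dex (DEX, 3 libraries) and harvested after 3 h. They had grown for 3 weeks under 8 h of light and then under 16 h of light at 21 °C. The 35S promoter drives the fusion in most tissues. Without Dex-treated plants that lack the fusion among these libraries, an effect of Dex itself and an effect of the fusion cannot be told apart. The genotype follows the titles and the source name of each sample, since the growth notes speak of wild type (Col-0). The labels say that RNA was pooled from several samples, and p-values below measure only the spread between these libraries.

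Sucrose is the main form in which carbon travels through the phloem, and it is cleaved in sink tissues in either of 2 ways. Invertases hydrolyse it irreversibly to glucose and fructose, in the cell wall and the vacuole by related acid enzymes and in the cytosol and organelles by neutral enzymes. Sucrose synthases cleave it reversibly with UDP to fructose and UDP-glucose, the precursor of cellulose and callose. Small inhibitor proteins bind acid invertases and block their activity after translation, so transcript levels of an invertase do not give its activity.

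Acid invertase genes of plants share an unusual exon of 9 bases that codes for part of a conserved motif of the catalytic domain, and it is shown because it marks the 3 acid invertases described here as one family. The exons, in TAIR10.1, lie at chr1:4154430-4154438 on the plus strand for *ATBETAFRUCT4*, at chr1:23200643-23200651 on the plus strand for AT1G62660, and at chr3:4535501-4535509 on the minus strand for *CWINV1*. The reference annotation keeps this exon in 1 of 4 transcripts of AT1G62660, in 1 of 5 of *CWINV1* and in the 1 transcript of *ATBETAFRUCT4*. Capitals mark the exon, and lower case the 15 intron bases on each side.
ATBETAFRUCT4: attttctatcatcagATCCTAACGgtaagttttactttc
AT1G62660: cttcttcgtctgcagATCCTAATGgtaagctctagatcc
CWINV1: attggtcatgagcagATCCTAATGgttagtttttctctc

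The 300 bases upstream of the annotated start are shown for the vacuolar invertase and the inhibitor with the largest differences between the groups. The window of *ATBETAFRUCT4* lies at chr1:4153341-4153640 on the plus strand and that of *C/VIF1* at chr1:17683720-17684019 on the minus strand (TAIR10.1), and capitals mark the motif matches.
ATBETAFRUCT4 upstream: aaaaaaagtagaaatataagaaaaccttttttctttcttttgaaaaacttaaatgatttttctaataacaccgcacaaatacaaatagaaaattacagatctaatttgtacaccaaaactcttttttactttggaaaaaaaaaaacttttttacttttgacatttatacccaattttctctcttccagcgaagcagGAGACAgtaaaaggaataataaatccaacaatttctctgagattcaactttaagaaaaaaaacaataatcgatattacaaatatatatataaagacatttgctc
C/VIF1 upstream: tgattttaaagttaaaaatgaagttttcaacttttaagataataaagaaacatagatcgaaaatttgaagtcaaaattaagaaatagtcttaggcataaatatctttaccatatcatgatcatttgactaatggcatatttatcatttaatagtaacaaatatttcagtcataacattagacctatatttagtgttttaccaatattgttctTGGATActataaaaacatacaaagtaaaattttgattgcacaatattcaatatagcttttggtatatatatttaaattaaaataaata
4 motifs were searched on both strands in such windows of 27443 protein-coding genes, and the 2 auxin forms among them share their first 4 letters. TGTCTC, the core of the auxin response element, was in the windows of *ATBETAFRUCT4* and *SUS6* and in 13.0% of all windows. TGTCGG, a second form of that element, was in none of the 10 windows and in 4.91% of all, and the G-box CACGTG was in none of the 10 and in 7.09% of all. TATCCA, a box known from sugar starvation promoters in rice, was in the windows of *C/VIF1* and *SUS1* and in 16.2% of all. The window of *SUS6*, alone among the 10, overlaps another annotated gene, AT1G73380. A match is a description of these letters and not a binding site.

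Libraries held 30601253 to 37812400 total gene reads. Of 19598 genes that passed the count filter, 2327 (11.9%) were called by edgeR's quasi-likelihood test at an adjusted p below 0.05, 1250 higher and 1077 lower in DEX (1305 in all without Mock 2). Defining markers of xylem and fibre walls (*CESA4*, *CESA7*, *CESA8* and *IRX9*) summed to 1177 to 1270 RPKM in Mock and 975 to 1337 in DEX, and those of phloem (*SUC2*, *APL*, *SEOR1* and *NAC086*) to 167 to 200 in Mock and 128 to 157 in DEX. None of the 4 phloem markers and none of the 4 wall markers was called, while the stem marker *BP* was called lower (log2 fold change -0.30 ± 0.08, SE; edgeR adjusted p = 0.047), a call lost in 8 of 16 alternative settings. *SUC2*, the phloem sucrose loader, had a log2 fold change of -0.50 ± 0.16 (SE; edgeR adjusted p = 0.087) and passed the threshold with DESeq2 (adjusted p = 0.024) and without DEX 3 (edgeR adjusted p = 0.018). *APL*, a phloem transcription factor named after its values were seen, was higher in every DEX library, at 8.60, 8.24 and 8.62 RPKM in Mock and 12.5, 10.2 and 10.1 in DEX (log2 fold change 0.44 ± 0.12, SE; edgeR adjusted p = 0.051). *SEOR1* and *NAC086*, likewise named after their values were seen, were lower in every DEX library than in any Mock library, as was *SUC2*. The log2 fold changes of *SEOR1* and *NAC086* were -0.14 ± 0.08 and -0.97 ± 0.31 (SE), with *NAC086* at 0.739 RPKM at most. Of all tested genes, 14.3% were lower in DEX without overlap. Only *APL* among the phloem markers went the other way, and the sum of the 4 followed *SUC2*, the most abundant of them. Summed markers of flower and seed stayed at or below 2.03 RPKM in every library and those of root at or below 0.635. In such bulk tissue, fewer cells of a type and less RNA per cell cannot be told apart, and the part of the phloem markers in the results was not tested.

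The 10 genes spanned a wide range of levels, compared here in RPKM, which is exon reads per kilobase of exon, scaled to the gene reads of the library. In Mock, *ATBETAFRUCT4* was the most abundant, with 147 ± 46.9 RPKM (SD, n = 3), followed by *SUS1* with 45.9 ± 8.52 (SD, n = 3). *C/VIF1* (23.6 ± 1.11), *C/VIF2* (18.2 ± 1.04), AT1G62660 (13.5 ± 3.81) and *CWINV1* (9.75 ± 3.64) came next (SD, n = 3 each). In that order, which rests on the deposited exon lengths, the libraries of *C/VIF2* overlapped those of AT1G62660. Those of AT1G62660 overlapped those of *CWINV1*, whereas all other neighbours were separated in Mock. With the length of a shorter transcript, described below, *C/VIF1* was at 44.6, 46.8 and 41.9 RPKM in Mock, which overlapped *SUS1*. The deposited length of *C/VIF2*, 669 bases, is below the 1097 bases of its reference exon, and its place with the latter was not tested. *SUS6*, *SUS5*, *SUS4* and *SUS3* closed the order, at 5.13 ± 0.159, 2.38 ± 0.0649, 1.95 ± 0.288 and 0.812 ± 0.0562 RPKM (SD, n = 3). All 10 genes passed the count filter, and every read of 9 of them, all but *C/VIF1*, was unique to its gene.

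**Figure D1:**
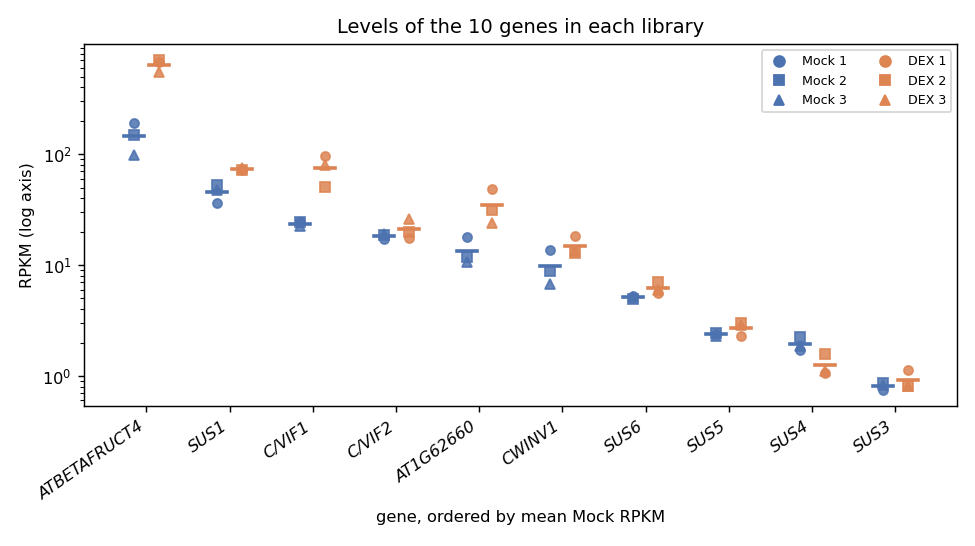
RPKM of the 10 genes on a log axis in the 3 Mock (blue) and 3 DEX (orange) libraries, with horizontal lines at the group means. *ATBETAFRUCT4* is highest in all 6 libraries, *SUS4* is the only gene whose DEX points lie wholly below its Mock points, and the 3 sucrose synthases *SUS3*, *SUS4* and *SUS5* stay at or below 3.03 RPKM.

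Under Dex, 4 of the 10 genes (*ATBETAFRUCT4*, *C/VIF1*, AT1G62660 and *SUS1*) were called higher and 0 lower, where 6.38% of all tested genes were called higher and 5.5% lower. The libraries of the groups did not overlap for 6 genes, 5 higher and 1 lower in DEX, against 28.3% of all tested genes in either direction, 13.9% higher and 14.3% lower. The median log2 fold change was 0.52 over the 10 genes and -0.01 over all tested genes. As these values chose the genes, nothing is read from the shares.

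The vacuolar invertases carry out sucrose hydrolysis in the large central vacuole and are known for setting hexose levels and turgor in growing cells. *ATBETAFRUCT4* (chr1:4153641-4157653, plus strand, 7 exons) had 13165, 11117 and 8368 total gene reads in Mock and 56650, 49550 and 46868 in DEX. Its level was 192, 150 and 98.1 RPKM in Mock and 672, 700 and 549 RPKM in DEX. Every DEX library lay far above every Mock library, and the Mock libraries themselves spread more, relative to their mean, than the DEX libraries. The fitted log2 fold change was 2.20 ± 0.25 (SE), or 4.59-fold, and 124 genes of all tested had one at least as high. By mean RPKM, the gene ranked 886 among all genes in Mock and 106 in DEX. It took 0.0330% of all gene reads in Mock and 0.144% in DEX. The next gene on the same strand, AT1G12244, starts 1 base after its annotated end, and that gene had 128, 141 and 168 reads in Mock and 136, 141 and 216 in DEX, with groups that overlapped.

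AT1G62660, the second vacuolar invertase (chr1:23199612-23203808, plus strand), was far less abundant. It had 1322, 959 and 980 reads in Mock and 4435, 2384 and 2185 in DEX, and 17.8, 11.9 and 10.6 RPKM against 48.6, 31.1 and 23.8. All DEX libraries lay above all Mock libraries, and DEX 1 stood above the other DEX libraries as Mock 1 did above the other Mock libraries. Its fitted log2 fold change was 1.44 ± 0.30 (SE). With 1 library left out, the log2 fold change was 1.09 to 1.70, and the gene was no longer among those called without Mock 2 or without Mock 3.

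*CWINV1* codes for a cell wall invertase, which cleaves sucrose in the apoplast (chr3:4532762-4535914, minus strand). It had 829, 573 and 500 reads in Mock and 1361, 799 and 1011 in DEX, or 13.8, 8.79 and 6.69 RPKM in Mock and 18.5, 12.9 and 13.4 in DEX. The groups overlapped, since Mock 1 lay above DEX 2 and DEX 3 in RPKM. The fitted log2 fold change was 0.69 ± 0.27 (SE), and with 1 library left out it was 0.48 (without Mock 3) to 1.03 (without Mock 1, where the gene was among those called). All 3 invertases thus had their highest Mock value in Mock 1 and their lowest in Mock 3.

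*ATBETAFRUCT4* made up 86.2 ± 1.47% (SD, n = 3) of the summed RPKM of the 3 acid invertases in Mock and 92.9 ± 1.71% (SD, n = 3) in DEX. The share of *CWINV1* was 5.71% in Mock and 2.17% in DEX, and that of AT1G62660 was 8.06% and 4.94%. All 3 shares were separated between the groups by library, so the makeup of the acid invertase transcripts differed as well as their sum. That sum was 223, 171 and 115 RPKM in Mock and 739, 744 and 586 in DEX.

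*C/VIF1* codes for an inhibitor that acts on vacuolar invertase in vitro (chr1:17681157-17683719, minus strand). It had 1193, 1351 and 1386 reads in Mock and 6016, 2631 and 4968 in DEX, or 24.2, 24.3 and 22.4 RPKM in Mock and 96.1, 50.2 and 79.6 in DEX. The Mock libraries lay close together, and all DEX libraries lay above them but far from one another, DEX 2 being the lowest. The fitted log2 fold change was 1.77 ± 0.23 (SE), or 3.40-fold, and 238 genes of all tested had one at least as high. The gene overlaps AT1G47950, which had 2 reads at most in any library.

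*C/VIF2*, whose product inhibits cell wall and vacuolar invertases in vitro, is a gene of 1 exon (chr5:25831635-25832731, plus strand). It had 348, 410 and 480 reads in Mock and 443, 420 and 658 in DEX, or 17.0, 18.5 and 19.0 RPKM in Mock and 17.7, 20.0 and 26.1 in DEX. The groups overlapped, and the fitted log2 fold change was 0.29 ± 0.15 (SE), or 0.12 without DEX 3. By deposited RPKM and exon lengths, the inhibitors were near each other in Mock, where *C/VIF1* over *C/VIF2* was 1.43, 1.31 and 1.18. In DEX this ratio was 5.44, 2.51 and 3.06, above every Mock value. *C/VIF1* accordingly made up 56.5 ± 2.35% (SD, n = 3) of the summed inhibitor RPKM in Mock and 77.1 ± 6.64% (SD, n = 3) in DEX.

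The RPKM of *C/VIF1* depends on the transcript assumed. The exon length in the tables, 1528 bases, is that of a transcript of 4 exons in TAIR10.1, while the reference also holds a transcript of 2 exons and 875 bases. The 2 transcripts share 596 bases, and 61.0% of the longer one lies outside the shorter. The deposited median coverage of *C/VIF1* was 1, 0 and 0 reads in Mock and 1, 0 and 0 in DEX, so that the median base of the longer transcript was covered by no more than a single read. Of 6468 genes with a mean Mock level of at least 20 RPKM, 3 (0.0464%) had a median coverage no higher than 1 in every library, *C/VIF1* among them. With all its gene reads set against 875 bases, an alternative chosen after seeing the data, *C/VIF1* stood at 44.4 ± 2.41 RPKM (SD, n = 3) in Mock and 143 ± 44.3 (SD, n = 3) in DEX. The levels then were 1.88 times the deposited ones in Mock, which placed the gene beside *SUS1*, and the separation of the groups was as before. *C/VIF1* was then no longer near *C/VIF2*, at 18.2 ± 1.04 RPKM (SD, n = 3) in Mock by its deposited length of 669 bases. The exon of *C/VIF2* in TAIR10.1 has 1097 bases. The ratio of *C/VIF1* to *C/VIF2* and their shares given above rest on the deposited lengths. The shorter transcript reads on past the second exon of the longer one, from chr1:17682442 down to chr1:17682254 on the minus strand, and 30 bases around that point (chr1:17682428-17682457) are shown because reads there count as intronic or exonic according to the transcript. Capitals mark the last 15 bases of the exon in the 4-exon transcript, and lower case the bases that only the 2-exon transcript keeps.
C/VIF1 exon end: GTGACTAGAGCCATTgtgagaatgttgctt

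**Figure D2:**
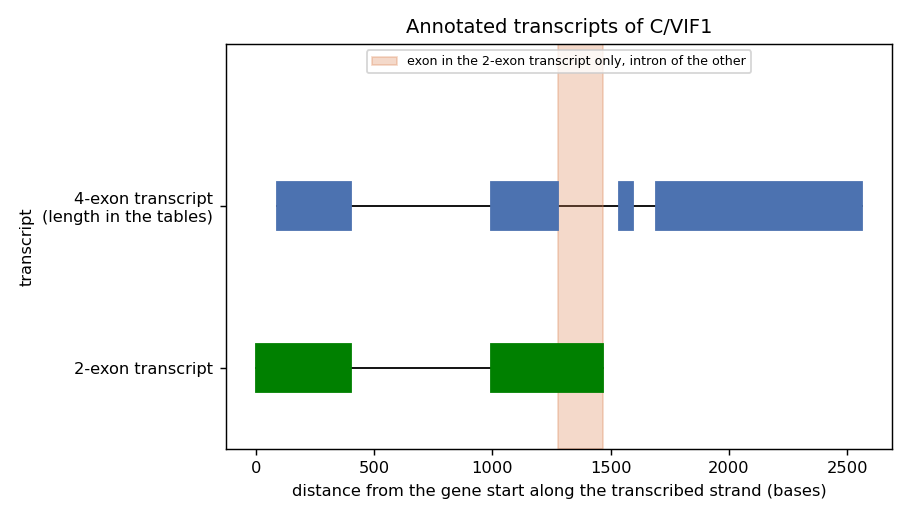
Exons (boxes) and introns (lines) of the 2 reference transcripts of *C/VIF1*, by distance in bases from the gene start along the transcribed strand. The shaded stretch of 189 bases is exon in the 2-exon transcript and intron in the 4-exon transcript whose 1528 bases set the deposited RPKM, and the last exon of the latter alone has 870 bases.

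Intron reads were the other measure in the choice of the genes. The sources used here do not define that column, which was not the gene reads minus the exon reads: it was higher than this difference in 5352 to 6066 genes per library. Only *ATBETAFRUCT4* and *C/VIF1* had enough intron reads for the fit over 2782 genes, in which 4.6% were called higher in DEX and 2.19% lower. *ATBETAFRUCT4* had 37, 32 and 50 intron reads in Mock and 226, 226 and 239 in DEX, with a fitted log2 fold change of 2.48 ± 0.26 (SE). *C/VIF1* had 93, 77 and 82 in Mock and 370, 161 and 304 in DEX, with a fitted log2 fold change of 1.63 ± 0.32 (SE). For both genes all DEX libraries lay above all Mock libraries in intron reads. The introns of the 4-exon transcript of *C/VIF1* hold 189 bases that are exon in its 2-exon transcript. How many of the intron reads of *C/VIF1* lie in that stretch was not tested. In *C/VIF1*, intron reads were 6.47 ± 1.15% (SD, n = 3) of the gene reads in Mock and 6.13 ± 0.0179% (SD, n = 3) in DEX. In *ATBETAFRUCT4* they were 0.389 ± 0.181% (SD, n = 3) in Mock and 0.455 ± 0.0555% (SD, n = 3) in DEX, and for both genes the ranges of the groups overlapped in this share. The other 8 genes had 13 intron reads at most in any library, and *C/VIF2*, with no intron, had 0.

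*SUS1* and *SUS4* are a pair of closely related sucrose synthases, both known for induction by low oxygen. *SUS1* (chr5:7050217-7055398, minus strand) had 3269, 5137 and 5301 reads in Mock and 7967, 6630 and 8344 in DEX, or 36.5, 53.1 and 47.9 RPKM in Mock and 72.7, 72.1 and 75.6 in DEX. The DEX libraries lay close together and above all Mock libraries, with Mock 1 the lowest of all. The fitted log2 fold change was 0.75 ± 0.14 (SE), or 1.68-fold. *SUS4* (chr3:15179010-15184105, minus strand) had 144, 207 and 196 reads in Mock and 111, 138 and 115 in DEX. Its level was 1.70, 2.27 and 1.88 RPKM in Mock and 1.07, 1.59 and 1.10 in DEX, so every DEX library lay below every Mock library. The fitted log2 fold change was -0.57 ± 0.19 (SE), the only negative one among the 10 genes.

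The ratio of *SUS1* to *SUS4* in RPKM was 21.4, 23.5 and 25.6 in Mock and 67.9, 45.4 and 68.5 in DEX. Both genes kept every read under unique counting, so that the ratio did not rest on reads shared by the pair. *SUS1* made up 81.4 ± 2.78% (SD, n = 3) of the summed sucrose synthase RPKM in Mock and 86.9 ± 1.36% (SD, n = 3) in DEX, and *SUS4* 3.48 ± 0.221% and 1.48 ± 0.342% (SD, n = 3).

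*SUS5* and *SUS6* are sucrose synthases of the phloem sieve elements, where they are linked to callose. *SUS6* (chr1:27584364-27588978, minus strand) had 512, 520 and 612 reads in Mock and 664, 692 and 714 in DEX, or 5.30, 4.98 and 5.13 RPKM in Mock and 5.61, 6.97 and 5.97 in DEX. Its groups did not overlap, although DEX 1 lay close to Mock 1, and the log2 fold change was 0.34 ± 0.10 (SE). *SUS5* (chr5:14718141-14723139, plus strand) had 186, 206 and 220 reads in Mock and 216, 241 and 273 in DEX, with overlapping groups in RPKM and a log2 fold change of 0.26 ± 0.13 (SE). *SUS3* (chr4:994726-998991, plus strand) was the least abundant of the 10, with 67, 83 and 91 reads in Mock and 123, 75 and 89 in DEX. The groups of *SUS3* overlapped and its log2 fold change was 0.25 ± 0.20 (SE), or 0.06 without DEX 1. All 3 genes had small positive fitted values, those of *SUS5* and *SUS3* with overlapping groups.

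**Figure D3:**
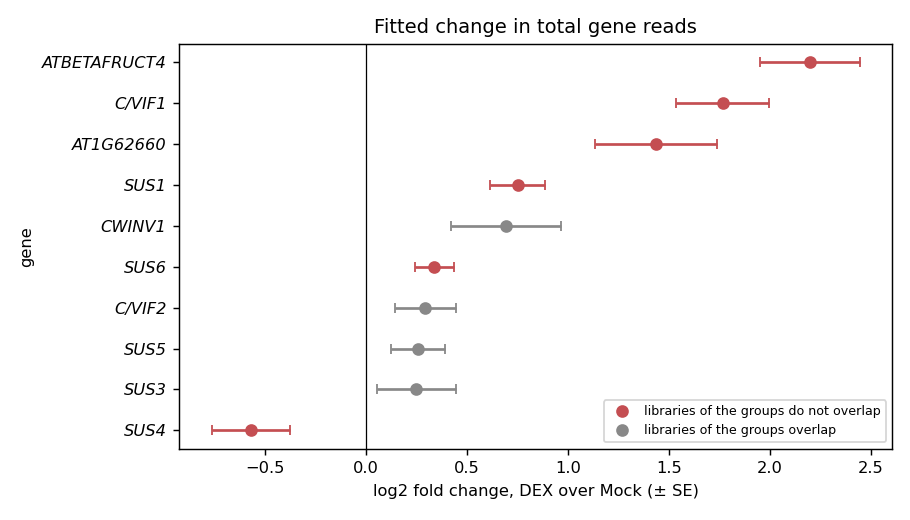
Fitted log2 fold change of total gene reads, DEX over Mock, with its standard error (bars), for the 10 genes, in red where the libraries of the groups do not overlap. *ATBETAFRUCT4* (2.20), *C/VIF1* (1.77) and AT1G62660 (1.44) lie highest, and *SUS4* (-0.57) is the only gene below 0.

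Summed over the families, sucrose synthases stood at 46.6, 63.7 and 58.1 RPKM in Mock and 82.8, 84.6 and 86.3 in DEX. The inhibitors stood at 41.2, 42.9 and 41.3 RPKM in Mock and 114, 70.2 and 106 in DEX. Invertases over sucrose synthases was 4.79, 2.68 and 1.99 in Mock and 8.92, 8.80 and 6.79 in DEX, without overlap. Invertases over inhibitors was 5.42, 3.98 and 2.79 in Mock and 6.50, 10.6 and 5.55 in DEX, where the lowest DEX value and the highest Mock value nearly met. With the 2-exon length of *C/VIF1* this last ratio was 3.63, 2.61 and 1.90 in Mock and 3.67, 6.43 and 3.32 in DEX, and the groups overlapped. The ratio of *ATBETAFRUCT4* to *C/VIF1* alone was 7.92, 6.16 and 4.39 in Mock and 6.99, 13.9 and 6.90 in DEX, with overlapping groups. The 10 genes together took 0.0597 ± 0.0106% (SD, n = 3) of all gene reads in Mock and 0.195 ± 0.0189% (SD, n = 3) in DEX.

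**Figure D4:**
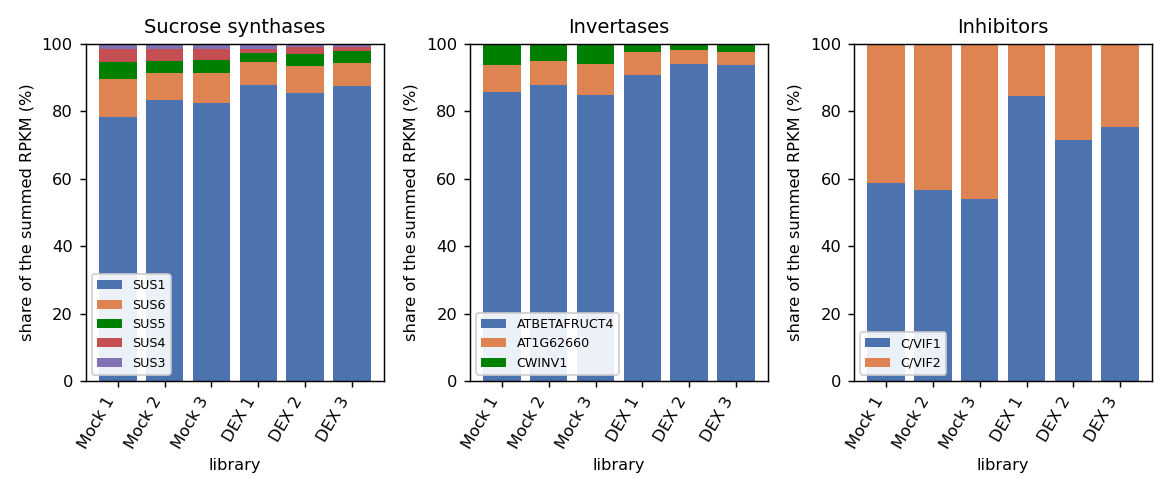
Share of each gene in the summed deposited RPKM of its family (bars, in percent) in each of the 6 libraries. *SUS1*, *ATBETAFRUCT4* and *C/VIF1* take the largest share of their families in every library, and the share of *C/VIF1* is 56.5% on average in Mock and 77.1% in DEX.

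Beside the 10 genes, 79 others give the setting, from lists drawn up with earlier results in view: 61 of sugar metabolism or transport, 9 sugar starvation markers and 9 low oxygen genes. Of the 79, 61 passed the count filter, 7 were called higher and 3 lower in DEX by edgeR's quasi-likelihood test, and their median log2 fold change was 0.12. Over all tested genes, 6.38% were called higher and 5.5% lower, and the counts of each list below stand beside these shares. Nothing is read from such counts, since the lists were drawn up with earlier results in view. Without Mock 2, 5 of the 79 were called. Further members of the same families showed no call. *SUS2*, the seed sucrose synthase, had 65 reads in all of Mock and 57 in DEX, and *FRUCT5*, named a cell wall invertase but an enzyme that cleaves fructans, had a log2 fold change of 0.22 ± 0.11 (SE; adjusted p = 0.297). *CWINV2*, *CWINV4*, *CWINV5* and *CWINV6* fell under the filter, with 2, 0, 9 and 15 reads in Mock and 6, 0, 9 and 29 in DEX.

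Neutral invertases, which cleave sucrose outside vacuole and wall, had 2 genes called higher of 7 tested. *A/N-InvC* was at 42.5 ± 4.93 RPKM in Mock and 73.3 ± 4.88 in DEX (SD, n = 3), a log2 fold change of 0.87 ± 0.11 (SE; edgeR adjusted p = 0.002). *A/N-InvD* was at 3.07 ± 0.508 and 7.16 ± 1.44 RPKM (SD, n = 3), a log2 fold change of 1.28 ± 0.18 (SE; edgeR adjusted p = 0.004). Both were separated between the groups by library, and both calls held in all 16 alternative settings.

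Sugar transporters of the tonoplast, which move the sugars that vacuolar invertase uses and makes, had 2 genes called higher and 1 lower of 8 tested. *SWEET16* was at 3.17 ± 0.864 RPKM in Mock and 8.81 ± 2.75 in DEX (SD, n = 3), and rose by 1.60 ± 0.28 (log2, SE; edgeR adjusted p = 0.010). *SWEET17*, a fructose carrier, was at 124 ± 17.8 RPKM in Mock and 72.2 ± 8.30 in DEX (SD, n = 3), and its log2 fold change was -0.72 ± 0.13 (SE; edgeR adjusted p = 0.013). *ERDL6*, a glucose exporter of the vacuole, was at 91.8 ± 21.8 and 167 ± 34.6 RPKM (SD, n = 3) and rose by 0.94 ± 0.22 (log2, SE; edgeR adjusted p = 0.032). The call of *ERDL6* was lost without Mock 2, Mock 3, DEX 1 or DEX 2.

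Of the enzymes that use the products, *HKL1*, a hexokinase-like protein, was called higher among 10 hexokinases and fructokinases tested (log2 fold change 0.65 ± 0.11, SE; edgeR adjusted p = 0.011). *UGP2*, a UDP-glucose pyrophosphorylase, was called lower among 3 (log2 fold change -0.39 ± 0.08, SE; edgeR adjusted p = 0.024), a call lost without Mock 1, Mock 2, DEX 1 or DEX 2. Among 8 sugar importers of the plasma membrane, *STP7* was called higher (0.49 ± 0.09, SE; edgeR adjusted p = 0.014) and AT5G61520 lower (-0.66 ± 0.13, SE; edgeR adjusted p = 0.018). The sugar that each of these importers carries was not tested. The call of AT5G61520 was lost without Mock 2, Mock 3, DEX 1 or DEX 2, and that of *HKL1* without Mock 2. None of 7 sucrose phosphate synthases and phosphatases, which make sucrose, was called, and the most abundant, AT2G35840, had a log2 fold change of 0.12 ± 0.13 (SE).

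**Figure D5:**
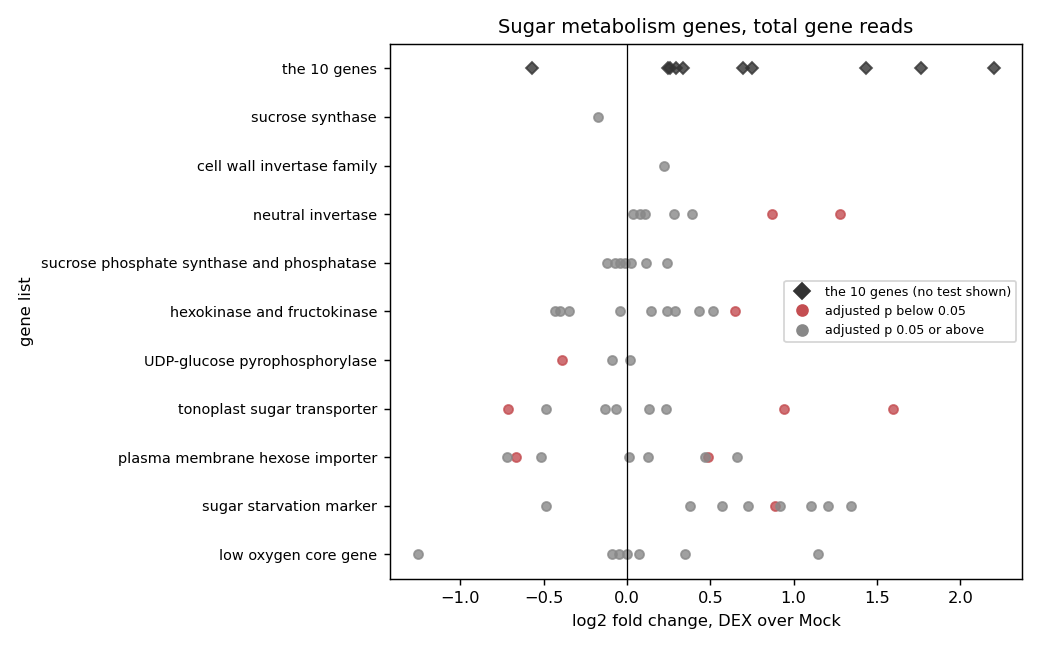
Log2 fold change of total gene reads, DEX over Mock, for the 10 genes (diamonds) and for the tested genes of each other list (circles, red where edgeR's adjusted p is below 0.05). Among the 61 other genes, *SWEET16* has the highest called value (1.60) and *SWEET17* the lowest (-0.72).

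Genes that mark the sugar and oxygen state of the tissue are given beside the 10 genes because *SUS1*, *SUS4* and the invertases are known to respond to both. The 9 sugar starvation markers had a median log2 fold change of 0.89, against -0.01 over all tested genes. All but *DIN10* (-0.49 ± 0.34, SE) had positive fitted values, and the groups of all but *BCAT2* and *TPS9* overlapped. Of the 9, 1 was called, *BCAT2*, at 117 ± 25.2 RPKM in Mock and 206 ± 27.8 in DEX (SD, n = 3; log2 fold change 0.89 ± 0.18, SE; edgeR adjusted p = 0.018), a call lost without Mock 2. *DIN6*, an asparagine synthase raised in dark and starved tissue and picked here after its values were seen, was at 14.8, 62.9 and 55.0 RPKM in Mock and 132, 34.7 and 122 in DEX. Its groups overlapped, and within DEX its low library was DEX 2, as for *C/VIF1* and for every other sugar starvation marker listed. Within Mock, *DIN6* was lowest in Mock 1, whereas *C/VIF1* stood at 24.2, 24.3 and 22.4 RPKM. None of 7 low oxygen genes tested was called, and their median log2 fold change was 0.002. *LBD41*, the most abundant, was at 39.0 ± 20.3 RPKM in Mock and 47.3 ± 18.4 in DEX (SD, n = 3). *HRE1* and *HB1* were named after their values were seen. *HRE1* was lower in every DEX library than in any Mock library (log2 fold change -1.25 ± 0.36, SE; edgeR adjusted p = 0.073). *HB1* had a log2 fold change of 1.14 ± 0.44 (SE), with overlapping groups. The part of the sugar or oxygen state in the values of the 10 genes was not tested.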

How the data were processed

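RNA from second internodes of 3 Mock and 3 DEX samples was sequenced by the authors with a library method that marks the strand, and reads were aligned to TAIR10 and counted with CLC Genomics Workbench. The sources used here do not say if strand was used in counting. The deposited tables hold counts per gene (total gene, unique gene, exon, intron and junction reads) and RPKM values, which the authors made by dividing exon reads by exon length and by the gene reads of each library; other deposited values used were exon length, exon number and median coverage. The 5 entries without a gene name took 0.0930 to 0.135% of reads and were left out, and 2 identifiers on 2 entries were summed. Columns of other samples numbered 0.

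Total gene reads were tested with edgeR 4.0.16 (R 4.3.3; filterByExpr, TMM factors, quasi-likelihood F test, Benjamini-Hochberg over 19598 genes), DEX against Mock without a block, as were intron reads over 2782 genes. Intron reads were scaled by the library sizes and TMM factors of the total gene reads. A call is an adjusted p below 0.05, and the biological coefficient of variation was 15.8%. The script was tested on simulated data. For total gene reads, 16 alternatives were run. They were DESeq2 1.42.0, limma 3.58.1 (voom), RLE factors, upper-quartile factors, library totals alone, no count filter and a stricter one. The others were unique reads, exon reads, the replicate number as a block, and leaving out each library. Intron reads had 10 alternatives, with scaling from the intron reads among them. The 10 genes and all lists were chosen with earlier results of these data known. Named from each other list were the called genes with the smallest adjusted p, up to 3, or the gene with the highest Mock RPKM where none was called. Genes under the filter were named with their reads. Sequences and gene models are from RefSeq TAIR10.1, which was used for positions only after identifiers matched for all 10 genes. Python 3.11.15 with pandas 2.3.3 and matplotlib 3.10.9 was used for summaries and plots.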

Additional observations from a re-analysis of the deposited data

How the results depend on the processing

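Over 16 alternatives the log2 fold change of *ATBETAFRUCT4* ranged from 1.98 to 2.45, that of *C/VIF1* from 1.53 to 2.00 and that of *SUS1* from 0.62 to 0.87; these genes were chosen on the same reads, so the ranges are a description. Leaving out 1 library gave 1305 to 2198 genes called on total reads (lowest without Mock 2, where 615 were higher and 690 lower), 3 to 5 of the 10 genes, 5 to 10 of the other pathway genes and 121 to 211 genes on intron reads. Without a count filter, 328 genes were called on intron reads. With the replicate number as a block, 3980 genes were called on total reads, 7 of the 10 genes (*CWINV1*, *SUS4* and *SUS6* added), 22 of the other pathway genes and 333 genes on intron reads. Deviations of libraries with the same number correlated at 0.590, 0.0653 and 0.577, and numbers 1 and 3, but not 2, correlated best with their own. This is a hint from the data that libraries 1 and 3 share structure with their counterparts, but the labels name no shared batch and not every pair deviated together, so the block was not used. *FRUCT5*, *LBD41* and *SUC2* also passed the threshold with it. The seed marker *AT2S1* had log2 fold changes of -0.50 (without DEX 1) to 0.77 when 1 library was left out. The cause of these changes was not tested. Reads were few for *SUS3* (67 to 123 per library) and for the introns of 8 of the 10 genes (13 at most), and how far depth or the spread between libraries limited their values was not tested.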
